A study of Mus musculus with 6 samples.

Results

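The genes described here are 8 targets of P53 that act in cell cycle arrest and signaling, *Cdkn1a*, *Ccng1*, *Phlda3*, *Eda2r*, *Trp53inp1*, *Gtse1*, *Btg2* and *Plk2*. They were found by symbol in the table of counts, where they are 8 of 24421 genes, and all 8 passed the filter on low counts that 15584 genes passed. They had been chosen with their levels in these libraries known, so the difference between genotypes is given for them as a description, without a test. Heads of mouse embryos at embryonic day (E) 9.0 were used for RNAseq, with 3 pools called WT and 3 pools called Het, and each pool held heads of 2 embryos matched by somites and taken from different litters. Het embryos (*Snrpb* ncc+/-) carried 1 *Snrpb* allele with *loxP* sites around exons 2 and 3 together with the *Wnt1-Cre2* transgene, which is active in the neural tube and in cells of the neural crest. The other cells of a Het head keep both copies of *Snrpb*, so each library mixes cells with and without the deletion. The sources used here do not give whether WT pools held embryos with the floxed allele or the transgene alone. All embryos were of a mixed CD1; C57BL/6J background, and no treatment was given. The comparison asks how the RNA of these targets differs between genotypes before the heads look abnormal.

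P53 is a transcription factor that is kept low by MDM2 and MDM4 and accumulates when cells are stressed, for example by damaged DNA or by failing ribosomes or spliceosomes. It then binds a motif in its target genes, some of which stop the cell cycle, some repair DNA or adjust metabolism, and some promote apoptosis. In the embryonic head, neural crest cells and their precursors are known to be sensitive to excess P53. Among the genes described here, *Cdkn1a* encodes p21, an inhibitor of cyclin-dependent kinases that blocks entry into S phase. *Ccng1* encodes cyclin G1, which works with protein phosphatase 2A on MDM2, *Gtse1* encodes a microtubule-associated protein of G2 and S phase that can move P53 out of the nucleus, and *Btg2* encodes an antiproliferative protein that binds deadenylases. *Phlda3* encodes a PH-domain protein that holds AKT back from the membrane, *Eda2r* the receptor for ectodysplasin A2, *Trp53inp1* a stress protein that acts with P53 in the nucleus, and *Plk2* a polo-like kinase.

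The promoter windows that held a unit of the P53 binding motif, alone or in a pair, are shown because the 8 genes are grouped as targets of P53. Binding itself was not measured here. A RefSeq window (GRCm38.p6, 250 bases before and 50 bases after an annotated start) was at hand for 7 genes, with 9 windows in all, and none for *Trp53inp1*. The P53 binding motif is made of 2 units of 10 bases, and the pattern of a unit reads the same on both strands. A unit, which had to match the pattern at every base, was found in the windows of *Cdkn1a*, *Ccng1* and *Gtse1*, and in 8.36% of the 32851 windows of all genes. Pairs with bases between their units were not searched for. A unit alone is not the whole motif. A pair of adjacent units with intact core bases and at most 2 mismatches outside them was found for *Cdkn1a* and *Gtse1*, and in 0.158% of all windows. Capitals mark the unit or the pair, and each window is written 5′ to 3′ on the strand of its gene.
Cdkn1a (chr17:29090729-29091028, + strand): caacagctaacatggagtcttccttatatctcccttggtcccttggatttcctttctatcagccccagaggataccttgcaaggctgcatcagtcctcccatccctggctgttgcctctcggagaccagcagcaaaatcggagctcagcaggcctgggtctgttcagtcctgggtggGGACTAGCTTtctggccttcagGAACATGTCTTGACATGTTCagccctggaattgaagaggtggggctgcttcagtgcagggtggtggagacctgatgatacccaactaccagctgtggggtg
Ccng1 (chr11:40755237-40755536, - strand): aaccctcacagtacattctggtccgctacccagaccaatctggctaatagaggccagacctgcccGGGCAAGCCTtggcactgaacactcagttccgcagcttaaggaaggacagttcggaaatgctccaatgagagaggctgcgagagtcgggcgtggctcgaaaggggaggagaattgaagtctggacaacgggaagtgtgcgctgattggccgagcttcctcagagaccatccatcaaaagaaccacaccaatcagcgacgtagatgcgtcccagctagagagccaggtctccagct
Gtse1 (chr15:85859696-85859995, + strand): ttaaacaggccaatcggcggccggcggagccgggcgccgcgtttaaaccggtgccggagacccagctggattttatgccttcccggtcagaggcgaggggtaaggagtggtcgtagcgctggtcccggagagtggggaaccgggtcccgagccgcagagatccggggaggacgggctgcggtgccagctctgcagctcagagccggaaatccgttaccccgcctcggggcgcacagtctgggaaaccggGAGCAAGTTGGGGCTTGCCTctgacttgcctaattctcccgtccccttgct

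In *Cdkn1a*, the pair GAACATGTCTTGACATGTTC lay from position -51 to -32, counted from the annotated start at 29090979 as 0. It departed from the motif at 1 base, and a single unit, GGACTAGCTT, lay from -73 to -64. A further window of *Cdkn1a*, at an annotated start farther downstream (29093769), held none. Which start was used in these heads was not examined, so the positions hold for the first start only. From the downstream start, the pair lies far upstream. In *Gtse1*, the pair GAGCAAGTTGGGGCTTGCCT lay across the start, from -1 to 18, also with 1 mismatch, and the window at its other annotated start held none. In *Ccng1*, the single unit GGGCAAGCCT lay from -185 to -176. No unit was found in the windows of *Phlda3*, *Eda2r*, *Btg2* and *Plk2*, which says only that these letters are not in these 300 bases. Of 43 other P53 targets listed, 33 had a window, 8 of them with a unit and 1, *Ckap2*, with a pair. Of 17 paralogs of the 8 genes, 15 had a window, and 0 held a unit.

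Libraries had 36378803 to 74909774 counted reads. *Snrpb*, the deleted gene, had 429.9, 438.2 and 414.2 CPM (counts scaled to a common library size) in WT and 436.5, 412.4 and 430.3 CPM in Het, a log2 fold change of -0.004 (standard error, SE, 0.039; adjusted *P* = 0.99, edgeR), so its level does not check the genotype labels. Of marker lists, 12 head genes summed to 289.9 to 355.6 CPM and 8 neural crest genes to 241.7 to 315.5 CPM, and 10 trunk and tail genes to 3.57 to 6.47 CPM. Primitive erythroid genes summed to 879.6 to 1494 CPM, with *Hba-a1* and *Hba-a2* at 0 in all 6 libraries. The highest of the erythroid sums and of the visceral endoderm sums (34.3 CPM, against 7.19 to 9.95 CPM in the other 5) were in WT replicate 1, which had the lowest cardiac sum (13.7 CPM, against 39.9 to 148.8 CPM). Sums of the 4 Y-linked genes were 62.8 to 120 CPM in WT and 111 to 228.3 CPM in Het, and *Xist* had 69.8 to 154.6 CPM in WT and 0.368 to 98.9 CPM in Het, so the pools differed in the sex of their embryos. The median log2 fold change was 0.85 for the Y-linked genes, 0.65 for the 8 cardiac genes tested, -0.96 for visceral endoderm and -0.08 for erythroid genes, with 0 genes of these lists at an unadjusted *P* under 0.05 (edgeR) or called by DESeq2, and their part in the levels of the 8 genes was not tested.

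*Cdkn1a* had the highest log2 fold change of all 15584 genes tested, and *Eda2r*, *Phlda3* and *Ccng1* ranked 3, 7 and 49. The RNA of these 4 genes was 2.1 to 4.99 times as abundant in Het as in WT heads, that of *Trp53inp1* 1.66 times, and that of *Gtse1*, *Plk2* and *Btg2* 1.13 to 1.21 times. Thus 5 of 8 genes had a fold over 1.5, and the name of strong targets does not describe the other 3, whose folds were under 1.5. In 6 of 8 genes every Het library was above every WT library, as in 8.32% of all genes tested, and the groups of *Btg2* and *Plk2* overlapped. None of the 8 (0 of 8) had an adjusted *P* under 0.05 with edgeR, where 0.00642% of genes did. DESeq2 called 6 of 8 higher, against 0.434% of the genes it tested. Since the 8 genes were chosen on this contrast, nothing is read from these counts. In RNA from whole heads, more cells with a transcript and more transcript per cell cannot be told apart.

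**Figure D1:**
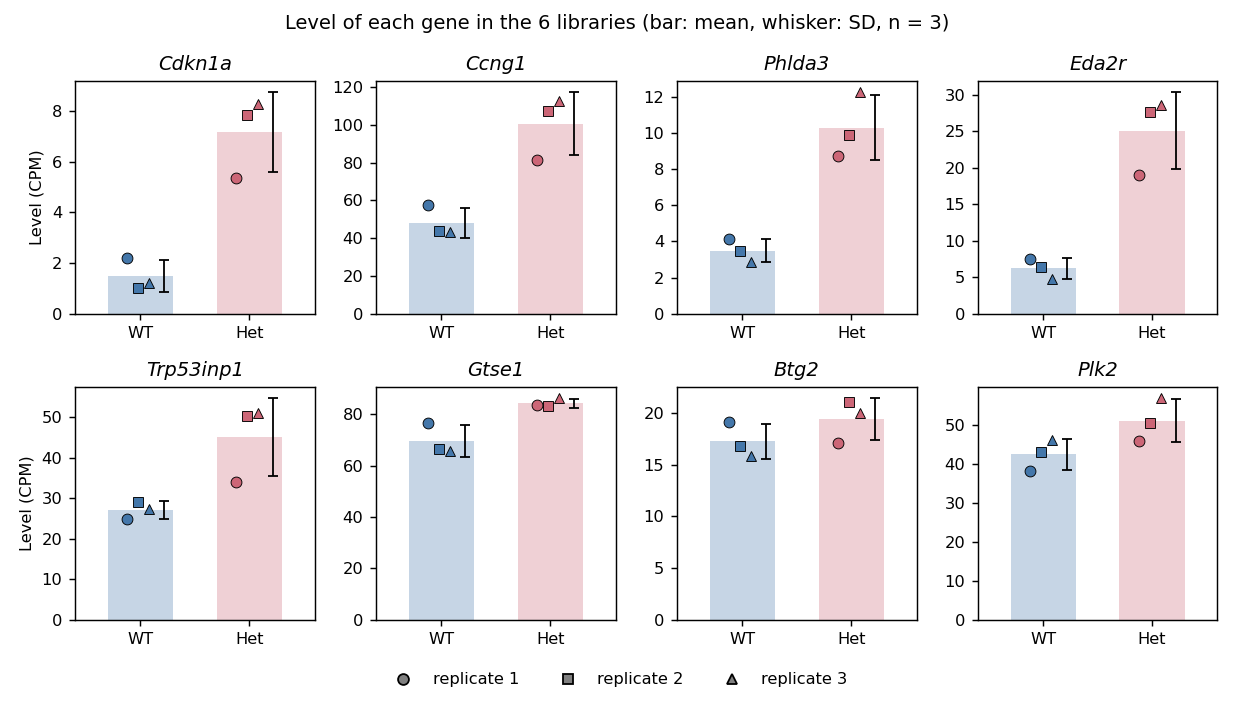
Level in CPM (vertical axes, from 0) of each of the 8 genes in the 3 WT and 3 Het libraries. Points are libraries, with a symbol for each replicate number, bars are means and whiskers SD (n = 3). Every Het point lies above every WT point except in Btg2 and Plk2.

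Of the genes of arrest, *Cdkn1a*, on chromosome 17 (29090976 to 29100727 in mm10), was the lowest in level and the highest in fold. It had 2.20, 1.00 and 1.22 CPM in WT and 5.35, 7.84 and 8.29 CPM in Het, from 45 to 596 counts per library. The lowest Het library was thus above the highest WT library, although WT libraries differed from each other more in this gene than in the other 7 (coefficient of variation 43.2%, against 8.11% to 22.5%). Means were 1.47 ± 0.64 CPM in WT and 7.16 ± 1.58 CPM in Het (SD, *n* = 3 each), a log2 fold change of 2.32 (SE 0.31). With each library left out in turn it was 2.08 to 2.71, with the highest value without WT replicate 1. An unverified transcript, AC167363.2, overlaps exons of *Cdkn1a* on the opposite strand and has no row in the table.

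*Ccng1*, on chromosome 11 (40748552 to 40755311), had 57.4, 43.9 and 43.0 CPM in WT and 81.5, 107.5 and 112.8 CPM in Het. The groups were apart, with WT replicate 1 the highest of WT and Het replicate 1 the lowest of Het. The log2 fold change was 1.07 (SE 0.17, 0.97 to 1.21 with a library left out), and with 1592 counts or more in each library its level was the best counted of the 4 genes with a fold over 2. *Gtse1*, on chromosome 15 (85859745 to 85876573), had 76.7, 66.2 and 65.7 CPM in WT and 83.5, 83.0 and 86.2 CPM in Het. Its Het libraries differed by the least of the 8 genes (coefficient of variation 2.02%), so the groups did not overlap at a log2 fold change of only 0.28 (SE 0.06). *Btg2*, on chromosome 1 (134075170 to 134079120), had 19.1, 16.8 and 15.8 CPM in WT and 17.1, 21.03 and 19.99 CPM in Het. Het replicate 1 was below WT replicate 1 and at 0.994 times the WT mean, and the log2 fold change was 0.17 (SE 0.10). It was 0.11 to 0.25 with a library left out, the lowest without Het replicate 2, and 0.10 with the Y-linked level as a covariate.

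Of the genes of signaling, *Eda2r*, on chromosome X (97333840 to 97377216), had 7.47, 6.39 and 4.70 CPM in WT and 19.02, 27.57 and 28.63 CPM in Het. All 3 Het libraries were at least 3.07 times the WT mean, and the groups did not overlap. The log2 fold change was 2.02 (SE 0.22, 1.87 to 2.18 with a library left out). *Eda2r* is X-linked, and *Xist* had 86.9, 69.8 and 154.6 CPM in WT and 65.1, 0.368 and 98.9 CPM in Het. In WT the library highest in *Xist*, replicate 3, was the lowest in *Eda2r*, and in Het replicates 2 and 3, lowest and highest in *Xist*, were both above replicate 1 in *Eda2r*. With the Y-linked level added to the fit as a covariate its log2 fold change was 1.93, and the part of sex in its level was not tested. *Phlda3*, on chromosome 1 (135766119 to 135769136), had 4.12, 3.47 and 2.87 CPM in WT and 8.71, 9.91 and 12.3 CPM in Het. Each Het library had at least 2.5 times the WT mean, and the log2 fold change was 1.57 (SE 0.17).

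*Trp53inp1*, on chromosome 4 (11156431 to 11174379), had 24.8, 29.2 and 27.5 CPM in WT and 34.1, 50.3 and 51.0 CPM in Het. Its Het libraries were split, with replicate 1 at 1.25 times the WT mean and replicates 2 and 3 at 1.85 and 1.88 times. The log2 fold change was 0.73 (SE 0.17), from 0.63 to 0.90 with a library left out. *Plk2*, on chromosome 13 (110395046 to 110400844), had 38.3, 43.3 and 46.2 CPM in WT and 46.1, 50.7 and 57.0 CPM in Het. Het replicate 1 (46.06 CPM) was just below WT replicate 3 (46.16 CPM), and the log2 fold change was 0.27 (SE 0.09). It was 0.18 to 0.34 with a library left out and 0.41 with the Y-linked level as a covariate.

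Scaled by exon length, the order of levels differed from the order of folds. The lengths are of a later Gencode release than the paper names, so levels per kb are approximate. In WT heads *Gtse1* was the most abundant, at 25.4 ± 2.27 CPM per kb of exon (SD, *n* = 3), followed by *Ccng1* at 13.7 ± 2.30 and *Plk2* at 9.48 ± 0.88. *Btg2* (6.28 ± 0.62), *Trp53inp1* (4.20 ± 0.34) and *Phlda3* (2.24 ± 0.40 CPM per kb) came next, and *Eda2r* (1.05 ± 0.24) and *Cdkn1a* (0.415 ± 0.179 CPM per kb) were lowest. The 4 genes with the lowest WT levels, *Cdkn1a* to *Trp53inp1*, had folds of 1.66 to 4.99, and among the other 4 only *Ccng1* had a fold above 1.21. In Het heads *Gtse1* (30.7 ± 0.62 CPM per kb) and *Ccng1* (28.6 ± 4.78) differed by less than the SD of *Ccng1*, and so did *Btg2* (7.07 ± 0.74), *Trp53inp1* (6.97 ± 1.48) and *Phlda3* (6.61 ± 1.16) by less than the SD of each. *Plk2* (11.4 ± 1.22) lay above these, and *Eda2r* (4.26 ± 0.90) and *Cdkn1a* (2.02 ± 0.45 CPM per kb) remained the lowest. Counted as a difference in level, *Ccng1* gained 14.9 CPM per kb, more than *Gtse1* (5.36), *Phlda3* (4.37), *Eda2r* (3.21), *Trp53inp1* (2.78), *Plk2* (1.93), *Cdkn1a* (1.6) or *Btg2* (0.785 CPM per kb).

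**Figure D2:**
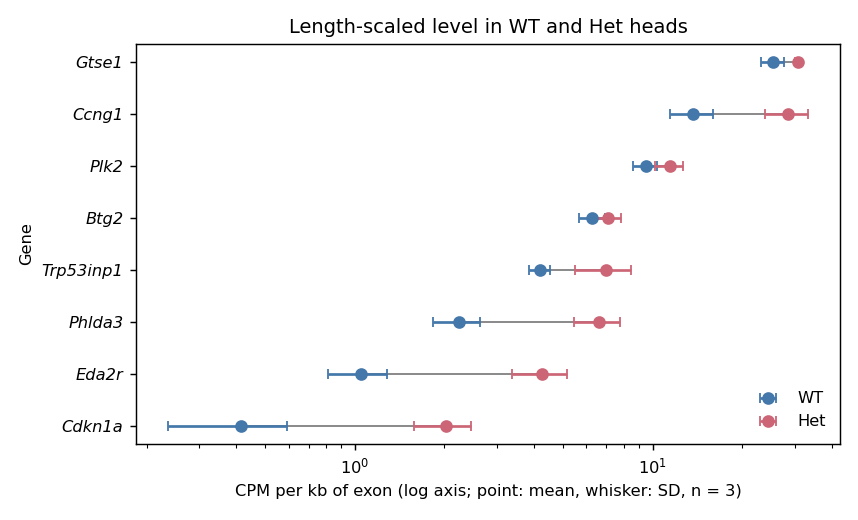
Level of each gene in CPM per kb of exon on a log axis, in WT and Het heads (points are means, whiskers SD, n = 3). Cdkn1a, lowest in both genotypes, moves from 0.415 to 2.02 and Ccng1 from 13.7 to 28.6, while Gtse1, Plk2 and Btg2 differ by 1.13 to 1.21 times.

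The order of the Het libraries in the 8 genes is also a description, since the genes were chosen with their levels in these libraries known. Het replicate 1 was the lowest of the 3 in 7 of 8 genes, as in 37.8% of all genes tested, and Het replicate 3 was the highest in 7 of 8, as in 32.6% of all genes. *Gtse1* was the exception at the low end, with its lowest value in replicate 2, and *Btg2* at the high end, with its highest in replicate 2. The distance between Het replicates 1 and 3 was largest in *Cdkn1a* (1.55 times), *Eda2r* (1.51), *Trp53inp1* (1.5), *Phlda3* (1.41) and *Ccng1* (1.38 times), and smaller in *Plk2* (1.24), *Btg2* (1.17) and *Gtse1* (1.03 times). The 5 genes with a fold over 1.5 against WT were the 5 with the larger distance between Het libraries. Fold and distance are both taken from the Het values, and whether they go together was not tested. *Cdkn1a*, *Eda2r*, *Phlda3* and *Ccng1* also varied most between WT libraries (coefficient of variation 43.2%, 22.5%, 18.0% and 16.8%), and *Trp53inp1* least (8.11%). The mean log2 CPM of the 8 genes was 4.66, 4.99 and 5.08 in Het replicates 1 to 3, against 4.05, 3.81 and 3.73 in WT.

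**Figure D3:**
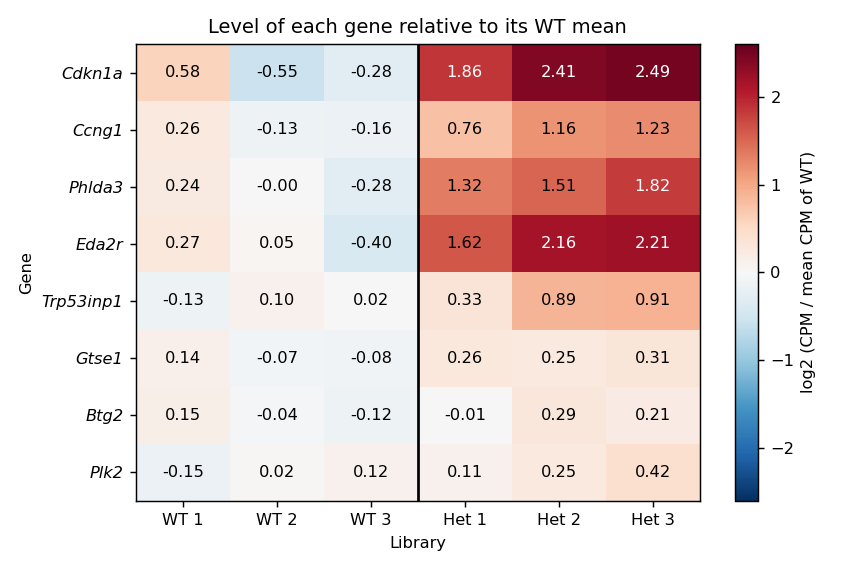
Level of the 8 genes (rows) in the 6 libraries (columns), as log2 of the CPM over the mean CPM of WT. Red is above and blue below the WT mean. Het 1 is paler than Het 2 and Het 3 in most rows, and WT 1 is above the other WT libraries in 6 of 8.

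In WT, replicate 1 was the highest of the 3 in 6 of 8 genes (38.1% of all genes tested), and *Trp53inp1* and *Plk2* were instead at their lowest there. WT replicate 3 was the lowest in 5 of 8 genes (31.8% of all genes). The 42 other P53 targets tested were counted in the same way, with the lowest value in Het replicate 1 in 22 of 42 (52.4%) and the highest in Het replicate 3 in 42.9%. Whether these shares differ from those of the 8 genes was not tested. Other values moved with these orders. Het replicate 1 was the Het library with the fewest reads (42398206), and the summed cardiac genes had 39.9, 87.0 and 148.8 CPM in Het replicates 1 to 3, the same order as the 8 genes. In WT the cardiac sum was in contrast lowest in replicate 1, where most of the 8 genes were highest. The Y-linked sum had another order in Het, 173, 228.3 and 111 CPM. Their part in the order was not tested.

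Without Het replicate 1 the groups of all 8 genes were apart, against 13.3% of all genes tested. Without WT replicate 1, *Plk2* alone overlapped (14.9% of all genes apart), and without WT replicate 3, *Btg2* alone did (12.8%). Leaving out any other library left *Btg2* and *Plk2* overlapping.

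In the other P53 targets fold changes were mostly small. This list and those below were also chosen with earlier results of these data known, so counts over them are only a description. Of 43 listed, 42 were tested, with a median log2 fold change of 0.07 against 0.90 for the 8 genes, and 25 had a higher and 17 a lower value in Het. At an unadjusted *P* under 0.05 (edgeR), 12 were higher and 0 lower, where 4.34% of all genes were higher and 4.09% lower, and 0 had an adjusted *P* under 0.05. With the Y-linked level as a covariate, 6 were higher at that unadjusted threshold. DESeq2 called 5 of them higher, *Ak1*, *Aldh4a1*, *Bax*, *Pmaip1* and *Sesn2*, of which *Bax* and *Aldh4a1* are named after their values were seen.

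Of 12 targets that promote apoptosis, 5 were higher at the unadjusted threshold. *Pmaip1*, which encodes the BH3-only protein NOXA, had 5.22, 3.98 and 4.84 CPM in WT and 6.77, 7.46 and 6.62 CPM in Het, a log2 fold change of 0.58 (SE 0.12, adjusted *P* = 0.309, edgeR). *Bax*, an effector of mitochondrial permeability, was at 0.23, *Tnfrsf10b*, a death receptor, at 0.35, *Bbc3*, which encodes PUMA, at 0.30 and *Pidd1* at 0.26, each with every Het library above every WT library. *Ei24*, the most abundant of this list, was at 0.08 with overlapping groups.

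Of 12 targets of metabolism and redox, 5 were also higher at that threshold. *Sesn2*, which encodes a sestrin that restrains mTORC1, had a log2 fold change of 0.53 (SE 0.15, adjusted *P* = 0.448, edgeR), with the same order of Het libraries as most of the 8 genes (27.6, 29.4 and 33.9 CPM). *Ak1*, an adenylate kinase, was at 0.47, *Cpt1c* at 0.45 and *Ddit4*, another inhibitor of mTORC1, at 0.28, and only the groups of *Ddit4* overlapped among these 4 genes. *Gpx1*, the most abundant of the list, was at 0.00. In DNA repair 1 of 9 genes was higher, the polymerase gene *Polk* (0.34, SE 0.09, adjusted *P* = 0.424, edgeR), and *Ercc5*, the most abundant, was at 0.07. Of 9 other arrest genes tested, 1 was higher, the phosphatase gene *Ptprv*, with 0.467, 0.375 and 0.486 CPM in WT and 0.758, 0.881 and 1.59 CPM in Het (log2 fold change 1.31, SE 0.33, adjusted *P* = 0.42, edgeR). *Ckap2*, the most abundant of these, was at 0.05.

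**Figure D4:**
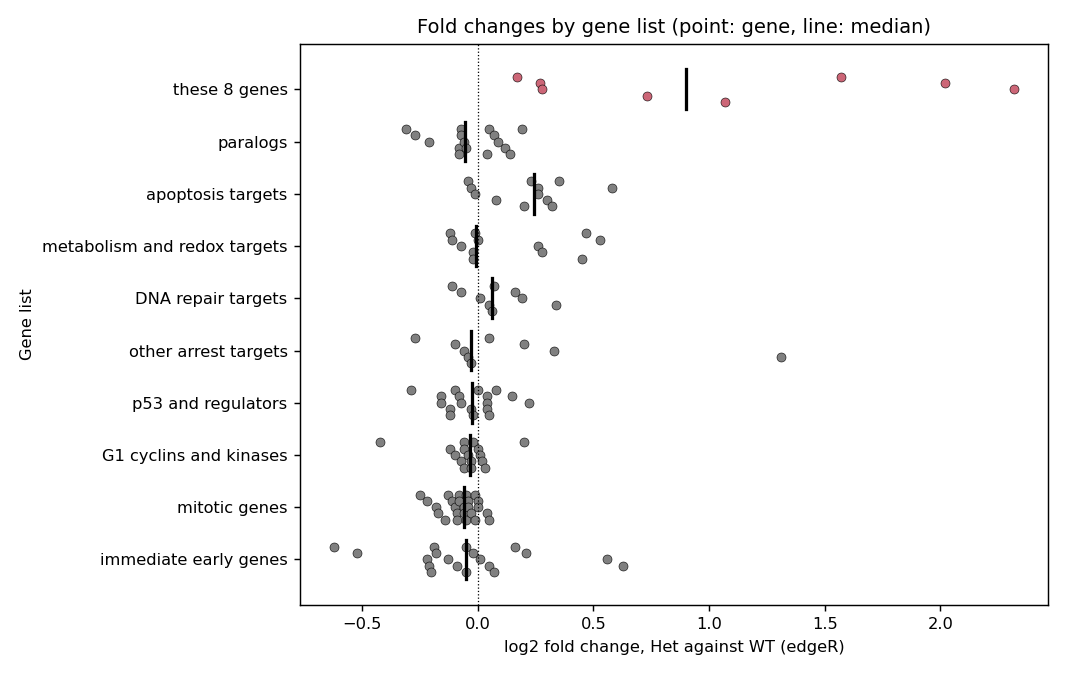
log2 fold change of Het against WT (horizontal axis, edgeR) for the tested genes of 10 lists of the P53 pathway, the cell cycle and the immediate early response, with a point for each gene and a line at the median of the list. The 8 genes lie from 0.17 to 2.32 with a median of 0.90, and the other 9 lists drawn have medians between -0.06 and 0.24. Marker lists of cell types and sex are not drawn.

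The RNA of P53 itself did not separate the genotypes. *Trp53* had 164.7, 162.2 and 138.8 CPM in WT and 145, 158 and 157.7 CPM in Het, with overlapping groups and a log2 fold change of -0.02 (SE 0.07). Of 18 tested genes of P53, its relatives and its regulators, 2 were higher and 2 lower at the unadjusted threshold, and 0 at the adjusted one, with edgeR or DESeq2. *Mdm2*, which encodes the ubiquitin ligase of P53 and is a target of P53 as well, had 53.6, 61.5 and 55.6 CPM in WT and 63.4, 68.4 and 66.7 CPM in Het (log2 fold change 0.22, SE 0.06, adjusted *P* = 0.433, edgeR). Its groups did not overlap, and its fold was close to those of *Gtse1* and *Plk2*. *Chek2*, a checkpoint kinase, was at 0.15. The kinases *Atm* and *Atr*, which act on P53 after DNA damage, were at -0.29 and -0.16. *Mdm4* (-0.03), *Usp7* (0.00), *Rfwd2* (0.05), *Rchy1* (0.04), *Ppm1d* (0.08), *Hipk2* (-0.12), *Chek1* (-0.08), *Trp53bp1* (-0.12), *Ep300* (-0.07), *Crebbp* (-0.10), *Trp63* (-0.16) and the ribosomal protein genes *Rpl5* (0.04) and *Rpl11* (0.04) made up the rest. *Trp73* did not pass the filter, with 0 to 0.0752 CPM. These are counts per gene, which do not show the exons that a transcript holds. The paper reports more skipping of an exon in *Mdm2* and in *Mdm4* in mutant heads at E9.0, and more nuclear P53 at a later stage. Such changes cannot be seen here. By quantitative RT-PCR at E9.0 the paper also reports higher levels of *Trp53inp1*, *Ccng1* and *Phlda3*, significant for *Ccng1* and *Phlda3*. At the later stage it reports increases that were not significant.

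Paralogs of the 8 genes had log2 fold changes smaller in size than those of the 5 genes with a fold over 1.5. The largest in size, of *Trp53inp2* (-0.31) and *Plk3* (-0.27), were similar in size to those of *Gtse1* (0.28) and *Plk2* (0.27). Of 16 tested, 0 had an unadjusted *P* under 0.05 with edgeR and 0 an adjusted *P* under 0.05 with DESeq2, and log2 fold changes were -0.31 to 0.19. Beside *Cdkn1a* at 2.32, the kinase inhibitors *Cdkn1b* and *Cdkn1c* were at -0.07 and 0.04. Beside *Ccng1* at 1.07, *Ccng2* was at 0.05, and beside *Phlda3* at 1.57, *Phlda1* and *Phlda2* were at 0.14 and 0.19. Beside *Eda2r* at 2.02, the related receptors *Edar* and *Tnfrsf19* were at -0.05 and -0.07, and beside *Trp53inp1* at 0.73, *Trp53inp2* was at -0.31 (SE 0.14). The relatives of *Btg2* (*Btg1*, *Btg3*, *Tob1* and *Tob2*) were at -0.21 to 0.09, and those of *Plk2* (*Plk1*, *Plk3*, *Plk4* and *Plk5*) at -0.27 to 0.12. *Btg4* did not pass the filter. The ligand gene *Eda* had 5.64 to 7.08 CPM and a log2 fold change of 0.03, and the adaptor genes *Edaradd*, *Traf3* and *Traf6* were at -0.07 to -0.03.

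Genes of the cell cycle steps that p21 blocks were also listed. Of 16 genes of G1 cyclins, kinases and the RB and E2F families, 1 was lower at the unadjusted threshold, *E2f1*, which encodes an activator of S phase genes. It had 30.5, 28.8 and 27.0 CPM in WT and 21.5, 21.2 and 22.1 CPM in Het, a log2 fold change of -0.42 (SE 0.06, adjusted *P* = 0.182, edgeR), and it was called lower by DESeq2. *E2f1* is on chromosome 2, as is *Snrpb*, and the part of p21 or of this position in its level was not tested. The kinase gene *Cdk4*, the most abundant, was at 0.03. Of 25 mitotic genes, 23 had a lower value in Het, as did 7755 of all 15584 genes tested. Scaled by library size alone, 19 were lower, as were 7028 of all genes. The median log2 fold change of the 25 was only -0.06, and these genes tend to vary together. At the unadjusted threshold 3 of them were lower, *Top2a* (-0.22), *Bub1* (-0.13) and *Aurkb* (-0.11), and DESeq2 called *Top2a*. Of 19 immediate early genes, which respond to handling and to growth factors, 2 were lower, *Jun* (-0.22) and *Ctgf* (-0.20), and *Ier2*, the most abundant, was at 0.05. None of the 19 (0 of 19) was higher at that threshold.

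The 10 tested genes whose log2 CPM was most like the mean of the 8 standardised genes were looked for over all 6 libraries, so likeness includes the difference between genotypes and the 6 points share depth and genotype. Pearson's *r* was 0.984 to 0.996 over *n* = 6 libraries, given as a description. They were *Gm16796* (0.996), *Rufy2* (0.992), the small nucleolar RNA gene *Snord49a* (0.992), *Mettl13* (0.991), *Slc19a2* (0.991), *Ddit4l* (0.991), *Gm12522* (0.99), *Smek1* (0.986), *Hibadh* (0.985) and *Adamtsl4* (0.984), and none was on a list. *Slc19a2*, which encodes a thiamine transporter, had 10.3, 9.28 and 7.87 CPM in WT and 13.4, 16.7 and 18.5 CPM in Het, a log2 fold change of 0.83 (SE 0.14). *Ddit4l*, a relative of *Ddit4*, had 2.97, 2.38 and 2.16 CPM in WT and 4.00, 4.81 and 5.25 CPM in Het, a log2 fold change of 0.91 (SE 0.16). The log2 fold changes of the 10 genes were 0.08 to 1.03, and those of *Smek1* and *Hibadh* were under 0.1.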

How the data were processed

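RNA was depleted of ribosomal RNA and sequenced from 6 pools of heads by the authors, who mapped reads to mm10 with STAR. The deposited values are the authors' raw counts per gene symbol, without normalization. The counting program is HTSeq in the methods and featureCounts in the submitters' processing notes, and its strand setting is not given in the sources used here, so reads of antisense genes may be shared.

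Counts were normalized with TMM, filtered with filterByExpr (15584 genes kept, 8837 left out) and tested, Het against WT over all genes, with edgeR's quasi-likelihood test (version 4.0.16, R version 4.3.3, two-sided, Benjamini-Hochberg adjustment, threshold 0.05). DESeq2 (version 1.42.0), the authors' tool, was an alternative. Depth was 36378803 to 74909774 counts per library. Libraries of a genotype differed far beyond counting noise (chi-square divided by its degrees of freedom at least 13.2), so none was deposited repeatedly, and the spread between pools, 3 per genotype, sets the precision. Coordinates and exon lengths come from Gencode M21 on mm10, a later release than the one the paper names for its annotation. Promoter windows come from RefSeq. Of these steps, only the edgeR fit was tested on simulated counts with known changes. Figures were drawn with matplotlib (version 3.10.9).

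The 8 genes and all lists were chosen with earlier results of these data known. Named genes are the 8 genes, *Snrpb*, P53 and its regulators, tested paralogs, up to 4 genes per other list at an unadjusted *P* under 0.05 with its most abundant gene, and the 10 genes most like the 8. Alternatives were other scalings and filters, a replicate block, a Y-linked covariate and each library left out. The overlap of groups with a library left out was added after the values were seen.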

Additional observations from a re-analysis of the deposited data

How the results depend on the processing

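All 104 log2 fold changes of the 8 genes over 13 alternatives were positive. Since the genes were chosen on this contrast, nothing is read from that count. Of these values, 0 moved by more than 1 SD, the spread of log2 CPM between libraries of a genotype. Leaving out a library can hardly move a fold change that far, so this limit says little about those fits. The median of the 8 genes, 0.901, was 0.803 to 1.047 with a library left out. The number of genes called in the whole table changed most. Higher in Het were 1 with edgeR, 56 with DESeq2, 9 without a filter, 0 with the Y-linked covariate and 0 to 6 with a library left out (6 without WT replicate 1, 5 without Het replicate 1, 0 without each of the others). Lower were 0 with edgeR, 28 with DESeq2 and 2 without a filter. Of the other P53 targets, 6 rather than 12 were higher at an unadjusted *P* under 0.05 with the Y-linked covariate, and 0 to 1 was lower with a library left out (1 without WT replicate 2). Scaled by library size alone, 2 rather than 1 of the 8 genes were highest in Het replicate 2 and 0 rather than 1 lowest there. The cause of these changes was not tested.

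With the replicate number as a block, 1 gene was called and the median of the 8 genes was 0.892. Deviations of libraries with the same number correlated at 0.169, 0.0317 and 0.36 across genes. WT replicates 1 and 3 correlated best with the Het library of the same number. WT replicate 2 correlated about as well with Het replicate 1 (0.0386). Since the match did not hold for each number, the numbers were not taken as pairs. With 3 pools per genotype, no library can be judged an outlier, and the lowest count of the 8 genes in a library was 45, for *Cdkn1a* in WT.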
